A study of Mus musculus with 6 samples.

Results

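Core identity genes of macrophages and monocytes were followed in primary mouse macrophages exposed in culture to the yeast *Candida albicans* for 6 h. The group comprised 9 of the 54532 genes in the deposited table, taken by symbol, each with 1 row: the receptor gene *Csf1r*, the transcription factor genes *Spi1*, *Cebpa* and *Maf*, the surface marker gene *Adgre1*, the TAM receptor genes *Mertk* and *Axl*, and the chemokine receptor genes *Cx3cr1* and *Ccr2*. The cells came from wild-type animals (WT, METRNL+/+) or from animals whose labels give a knockout of METRNL, which encodes the secreted protein meteorin-like (KO, METRNL-/-). Each genotype had 3 libraries, and all of them came from cells given the fungus. The labels do not state the tissue of origin, the allele, the strain, the age or whether replicates were separate animals, so a p-value measures no more than the spread among these libraries, possibly a technical one.

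Macrophage identity rests on a small set of factors and receptors. PU.1, the product of *Spi1*, and C/EBP-alpha, the product of *Cebpa*, commit progenitors to the myeloid line. PU.1 activates *Csf1r*, whose product binds CSF1 and IL-34 and keeps macrophages alive. MAF restrains self-renewal in mature macrophages, and *Adgre1* encodes F4/80, the classical surface marker of mouse macrophages. MERTK and AXL are receptor kinases that bind GAS6 on dying cells, and MERTK also binds protein S. CCR2 marks the classical monocyte subset and CX3CR1 the patrolling one.

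FPKM divides reads by gene length and by a total per library, so levels of different genes can be compared per length. Recovered reads in genes came to between 11026529 and 15724897 per library. The total that the FPKM values imply was not simply these reads. In WT replicate 1 it was 16034203 beside 14309247 reads, and in KO replicate 1 it was 12793110 beside 14772746. In the other libraries the total was above the reads in genes, most in WT replicate 2 (11774042 beside 11026529). The FPKM of a library summed to 311409 to 365689 in WT and 334570 to 412048 in KO, with KO replicate 1 highest. *Metrnl* had 93.5, 63.2 and 69.8 FPKM in the WT libraries, in the order of replicates 1 to 3 as in all such series of values here, and 51.2, 63.6 and 62.8 FPKM in the KO libraries, and did not pass the test (limma, adjusted p = 0.181). Its RNA does not check the labels, so KO means the libraries labelled KO. The replicate 1 libraries of both genotypes lay apart from their own groups on the second principal component, which carried 17.9% of the variance. They lay at opposite ends of it. The WT libraries were at 22.0, -8.82 and -4.68 and the KO libraries at -25.4, 8.02 and 8.84. Pan-macrophage markers outside the 9, 25 in number, summed to 7861 to 8956 FPKM in WT and to 12183 to 13102 FPKM in KO. One label speaks of retinas, and the 12 retinal markers summed to 0.650 to 1.36 FPKM per library, with *Rbp3* at 0 in all 6.

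The 9 genes spanned a wide range of levels. By mean FPKM, the WT order from high to low was *Adgre1*, *Csf1r*, *Spi1*, *Axl*, *Cebpa*, *Mertk*, *Maf*, *Ccr2* and *Cx3cr1*. In KO the order differed only in that *Cebpa* stood above *Axl*. Neighbours in this order did not overlap between libraries, except *Csf1r* with *Spi1* in both genotypes and *Cebpa* with *Axl* in KO. The mean level of *Adgre1* was at or above that of 98.05% of tested genes, that of *Csf1r* 95.9% and that of *Maf* 11.5%. *Cx3cr1* and *Ccr2* lay below the mean of 0.5 FPKM that a gene needed to be tested.

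**Figure D1:**
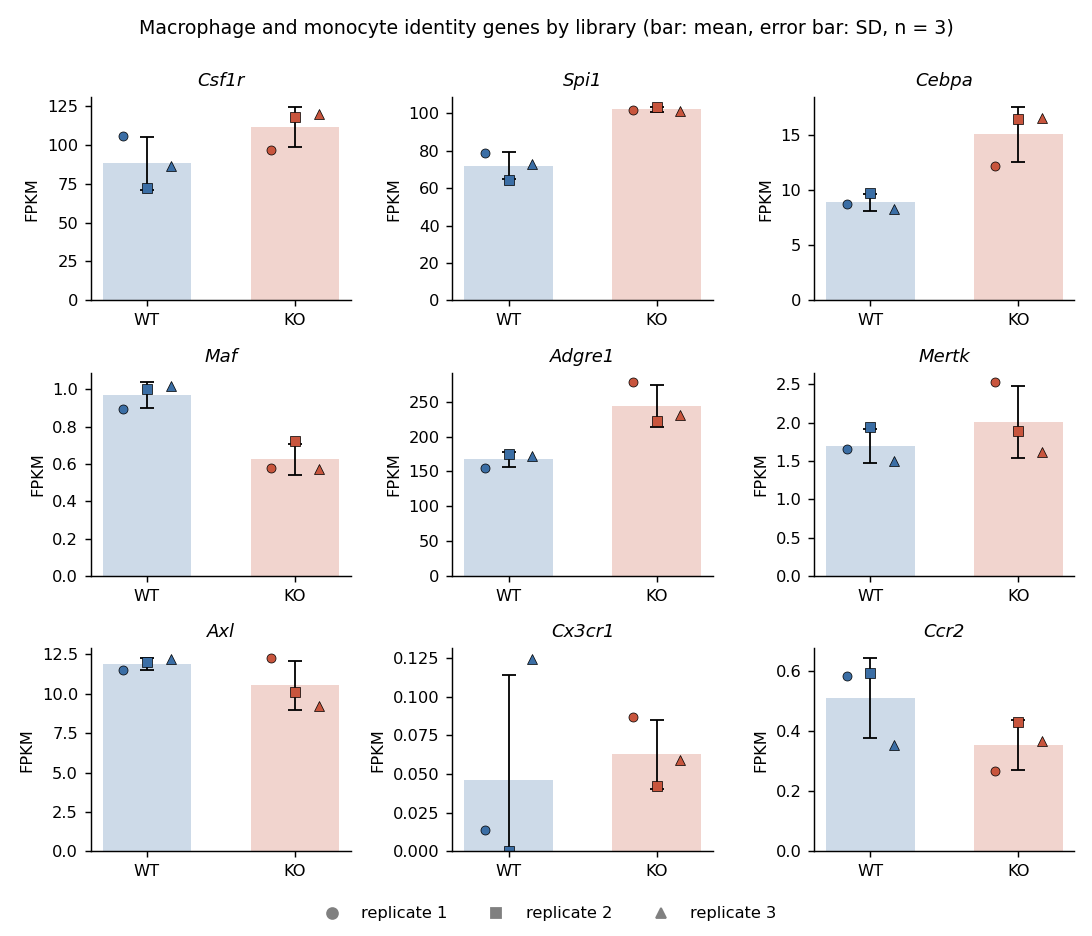
FPKM of the 9 genes, each on its own linear axis, by genotype; points are libraries, bars are means and error bars are SD over 3 libraries (cut at 0 for *Cx3cr1* in WT). All KO points lie above all WT points for *Spi1*, *Cebpa* and *Adgre1* and below them for *Maf*, while the groups overlap for the other genes.

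Of the 7 identity genes tested, *Spi1*, *Cebpa* and *Adgre1* rose in KO (3 of 7), and none was called lower. Over all 11689 tested genes 28.0% were called, 15.7% higher and 12.4% lower (limma on log2(FPKM + 1), Benjamini-Hochberg adjusted p below 0.05). Beside the 0 lower calls of limma, 1 identity gene was lower at an unadjusted p below 0.05 and 1 was called lower by limma's voom on recovered reads, *Maf* in both cases. The groups did not overlap for 4 of the 9 genes, 3 with KO above WT and 1 with KO below. Among all tested genes the groups did not overlap for 45.6%, with KO above in 25.7% and below in 19.9%. The median log2 difference, KO minus WT, was 0.35 for the 7 genes and 0.031 for all tested genes. In bulk RNA, fewer cells of a type and less RNA per cell cannot be told apart.

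The lineage factor gene *Spi1* (ENSMUSG00000002111, GRCm38, chromosome 2, 91082390 to 91115756, plus strand, protein coding) was nearly level across the KO libraries in the deposited FPKM. WT libraries had 78.9, 64.4 and 72.7 FPKM and KO libraries 102, 104 and 101 FPKM. On this scale every KO library stood above every WT library, and the coefficient of variation was 1.15% in KO and 10.1% in WT. The full split rests on the scaling of the libraries. *Spi1* took 3411 of 14309247 reads in genes in WT replicate 1 and 3507 of 14772746 in KO replicate 1, no higher a share. Mean levels were 72.0 ± 7.30 and 102 ± 1.18 FPKM (SD, n = 3 per genotype), 1.42-fold higher in KO. The log2 difference was 0.50 with a standard error of 0.09 and a 95% interval of 0.29 to 0.72 (limma, adjusted p = 0.00936). *Spi1* was not called with quantile normalization (limma, adjusted p = 0.0717) or in TPM, in which every library has the same sum (0.115). Nor was it called with the replicate number as a block (0.0610).

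*Spib*, a close relative of *Spi1*, went the other way. This ETS factor gene of B cells and plasmacytoid dendritic cells had 10.1, 13.4 and 12.3 FPKM in WT and 1.25, 1.02 and 0.628 FPKM in KO. It fell, with a log2 difference of -2.72 and a standard error of 0.15 (limma, adjusted p = 1.82e-04). *Spic*, known from iron-recycling macrophages, had 11 reads in WT and 11 in KO and was not tested. B cell markers fell in the same libraries, 13 of 13 tested, and the 15 listed summed to 575 to 738 FPKM in WT and 30.8 to 39.5 FPKM in KO. B cells also express *Spi1*. Their markers took 0.1001% to 0.120% of the reads in WT and 0.00624% to 0.00667% in KO, and the part of these cells in the *Spi1* and *Spib* values was not tested.

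*Cebpa* (ENSMUSG00000034957, GRCm38, chromosome 7, 35119293 to 35121928, plus strand, protein coding) had 8.73, 9.79 and 8.27 FPKM in WT libraries and 12.2, 16.5 and 16.6 FPKM in KO libraries. KO replicate 1 was the lowest KO library and still above the WT libraries in FPKM. By reads its margin was slight, with 412 of 14772746 reads in genes there and 304 of 11026529 in WT replicate 2. Mean levels were 8.93 ± 0.781 and 15.1 ± 2.49 FPKM (SD, n = 3 per genotype), 1.69-fold higher in KO. On the log2 scale the difference was 0.69 with a standard error of 0.13 and a 95% interval of 0.37 to 1.00 (limma, adjusted p = 0.0122). It was not called in TPM (limma, adjusted p = 0.105, and 0.0881 over the same genes). The counting strand is not given in the sources used here, and antisense reads cannot be told apart without it. The antisense gene *Gm45091* shares exon bases with *Cebpa* and had 3 reads, all in KO, beside 946 reads of *Cebpa* in WT and 1753 in KO.

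Promoter windows came from RefSeq (GRCm38.p6), whose table held 5 of the 9 genes: *Cebpa*, *Axl*, *Mertk*, *Cx3cr1* and *Ccr2*. The windows of *Cebpa* and *Axl* are shown because these genes changed places in the order of levels. Each has the 250 bases before the start, 5′ to 3′ on the gene's own strand, from chr7:35119043-35119292 (plus strand) for *Cebpa* and chr7:25788734-25788983 (minus strand) for *Axl*. Capitals mark GAGGAA, a core that PU.1 binds, and the GC box GGGCGG, on either strand.
Cebpa: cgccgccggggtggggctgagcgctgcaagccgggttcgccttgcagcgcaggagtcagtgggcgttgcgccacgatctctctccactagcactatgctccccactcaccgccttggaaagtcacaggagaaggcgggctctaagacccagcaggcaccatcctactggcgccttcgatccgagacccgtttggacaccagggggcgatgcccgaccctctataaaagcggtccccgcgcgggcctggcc
Axl: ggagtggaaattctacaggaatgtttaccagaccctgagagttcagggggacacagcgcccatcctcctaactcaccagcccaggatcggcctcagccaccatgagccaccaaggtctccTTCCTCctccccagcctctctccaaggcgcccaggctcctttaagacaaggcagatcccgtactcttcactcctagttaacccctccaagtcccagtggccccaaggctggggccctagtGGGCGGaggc
The *Axl* window held 1 GAGGAA, on the reverse strand 130 bases before the start, and 1 GC box 10 bases before it. The *Cebpa* window held neither. GAGGAA was in 1 of the 5 windows and in 23.3% of 32851 RefSeq windows of this length, and the GC box in 2 of the 5, *Axl* and *Mertk*, and in 32.7% of all. TTGCNNAA, a C/EBP pattern, TGCTGA, part of the MAF recognition element, and the E-box CACGTG were in 0 of the 5, and in 9.56%, 16.1% and 6.02% of all windows. G and C made up 66.4% of the *Cebpa* window, 63.6% for *Mertk*, 60.0% for *Axl*, 53.6% for *Cx3cr1* and 37.2% for *Ccr2*, beside a median of 52.4%. These matches describe letters only.

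The other C/EBP genes stood at very different levels. *Cebpb*, whose product drives inflammatory genes in activated macrophages, had 759 ± 92.1 FPKM in WT, beside 890.0 ± 132 in KO (SD, n = 3), and did not pass (limma, adjusted p = 0.300). *Cebpg*, which encodes a dimer partner without an activation domain, had 5.03, 5.91 and 5.42 FPKM in WT and 13.2, 14.6 and 15.1 in KO. It rose 2.62-fold (log2 difference 1.25, standard error 0.08; limma, adjusted p = 3.18e-04). *Cebpd* was spread within both genotypes, with 5.09, 10.8 and 11.6 FPKM in WT and 12.96, 5.75 and 5.08 in KO (limma, adjusted p = 0.719). *Cebpe*, a granulocyte gene, had 26 and 25 reads and was not tested.

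*Maf* (ENSMUSG00000055435, GRCm38, chromosome 8, 115682942 to 115707794, minus strand, protein coding) was lower in every KO library and missed the threshold. WT libraries had 0.893, 1.000 and 1.02 FPKM and KO libraries 0.579, 0.723 and 0.575 FPKM, without overlap. Means were 0.970 ± 0.0675 and 0.625 ± 0.0843 FPKM (SD, n = 3 per genotype), on 320 and 226 reads, a ratio of WT to KO of 1.55. The log2 difference was -0.28 with a standard error of 0.09 (limma, adjusted p = 0.0632), on a scale that shrinks changes of genes this low. *Maf* passed without the intensity trend (limma, adjusted p = 0.0371) and in voom on the recovered reads, where the log2 difference was -0.62 (limma, adjusted p = 0.0198). *Gm15655*, which shares exon bases with *Maf* on the other strand, had 0 reads.

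The small MAF genes *Maff*, *Mafg* and *Mafk*, whose products lack an activation domain, did not pass (limma, adjusted p = 0.106, 0.855 and 0.944).

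*Csf1r* (ENSMUSG00000024621, GRCm38, chromosome 18, 61105572 to 61132149, plus strand as deposited) was high throughout and did not pass. WT libraries had 106, 72.0 and 86.3 FPKM and KO libraries 96.7, 118 and 119.8 FPKM. WT replicate 1 stood above KO replicate 1, so the groups overlapped. The log2 difference was 0.35 with a standard error of 0.16 and a 95% interval of -0.035 to 0.73 (limma, adjusted p = 0.153). Leaving out both replicate 1 libraries, which was decided after the data had been seen, gave 0.59 (limma, adjusted p = 0.0133). *Hmgxb3* shares exon bases with *Csf1r* on the other strand and had 2128 reads in WT and 2788 in KO, against 17703 and 23901 of *Csf1r*.

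Of the ligand genes of the CSF1 receptor, *Csf1* did not pass and *Il34* was too low to be tested. *Csf1* had 26.1, 17.5 and 23.2 FPKM in WT and 14.7, 24.8 and 22.6 in KO (limma, adjusted p = 0.744). *Il34* had 4 reads in WT and 1 in KO. *Csf1* per *Csf1r* was 0.247, 0.243 and 0.268 in WT libraries and 0.152, 0.210 and 0.189 in KO libraries, without overlap. Such a ratio is not moved by the scaling of a library (exact permutation test, two-sided, p = 0.1, the smallest that 3 against 3 libraries can give; 0.114 adjusted over 8 ratios chosen after the values were seen). Among 20 genes of signalling from the receptor 3 rose and 3 fell (median log2 difference -0.0064), and in TPM 1 rose and 2 fell. These counts are near the shares over all tested genes, 15.7% higher and 12.4% lower, and 3.35% and 8.68% in TPM. The kinase gene *Fgr* was 1.71-fold higher and the ubiquitin ligase gene *Cbl* 1.37-fold higher, a call lost under 9 of 17 alternatives, while *Pik3cd*, a kinase gene that lymphocytes also express, was 2.17-fold lower.

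Other growth factor receptor genes moved in both directions. *Csf2ra*, for a GM-CSF receptor subunit, had 248, 197 and 242 FPKM in WT and 313, 299 and 286 in KO (limma, adjusted p = 0.0416), a call lost under 10 of 17 alternatives. *Csf2rb* and the neutrophil receptor gene *Csf3r* did not pass (limma, adjusted p = 0.152 and 0.990). *Flt3*, of dendritic cells and progenitors, fell from 1.74 ± 0.246 to 0.403 ± 0.101 FPKM (SD, n = 3; limma, adjusted p = 0.00199), and *Kit*, of mast cells and progenitors, from 0.873 ± 0.190 to 0.253 ± 0.0854 FPKM (limma, adjusted p = 0.0153). *Kit* was not called without KO replicate 2 (0.0598) or KO replicate 3 (0.0602). Dendritic cell markers fell in 10 of 13 tested cases (listed sum 210.4 to 315 FPKM in WT, 101 to 111 in KO), and mast cell and basophil markers in 4 of 4 (6.996 to 8.59 and 1.06 to 1.56 FPKM). *Flt3* and *Kit* are on those lists, and the part of these cells was not tested.

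*Adgre1* (ENSMUSG00000004730, GRCm38, chromosome 17, 57358691 to 57483527, plus strand, protein coding) was the most abundant identity gene in all 6 libraries and rose in KO. WT libraries had 155, 175 and 173 FPKM and KO libraries 278, 222 and 230.3 FPKM. No KO library fell within the WT range, and KO replicate 1 was the highest. Means were 167 ± 11.0 and 243 ± 30.1 FPKM (SD, n = 3 per genotype), 1.45-fold higher in KO. The log2 difference was 0.53 with a standard error of 0.11 and a 95% interval of 0.27 to 0.80 (limma, adjusted p = 0.0159). The call held in TPM (limma, adjusted p = 0.0165). It ended without WT replicate 3 (0.0501) and with the replicate number as a block (0.0918).

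Both listed relatives of *Adgre1* were higher as well. *Adgre4*, for another adhesion receptor of macrophages, had 0.715, 0.973 and 0.938 FPKM in WT and 2.24, 1.85 and 1.85 in KO. Its mean FPKM rose 2.26-fold, and the log2 difference of FPKM + 1 was 0.67 with a standard error of 0.10 (limma, adjusted p = 0.00559). Adding 1 shrinks changes of genes this low, and in voom on the recovered reads the log2 difference was 1.19. *Adgre5*, the gene of CD97 on many leukocytes, had 14.4, 13.7 and 14.1 FPKM in WT and 20.2, 16.5 and 16.8 in KO (limma, adjusted p = 0.0443), a call lost under 12 of 17 alternatives.

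**Figure D2:**
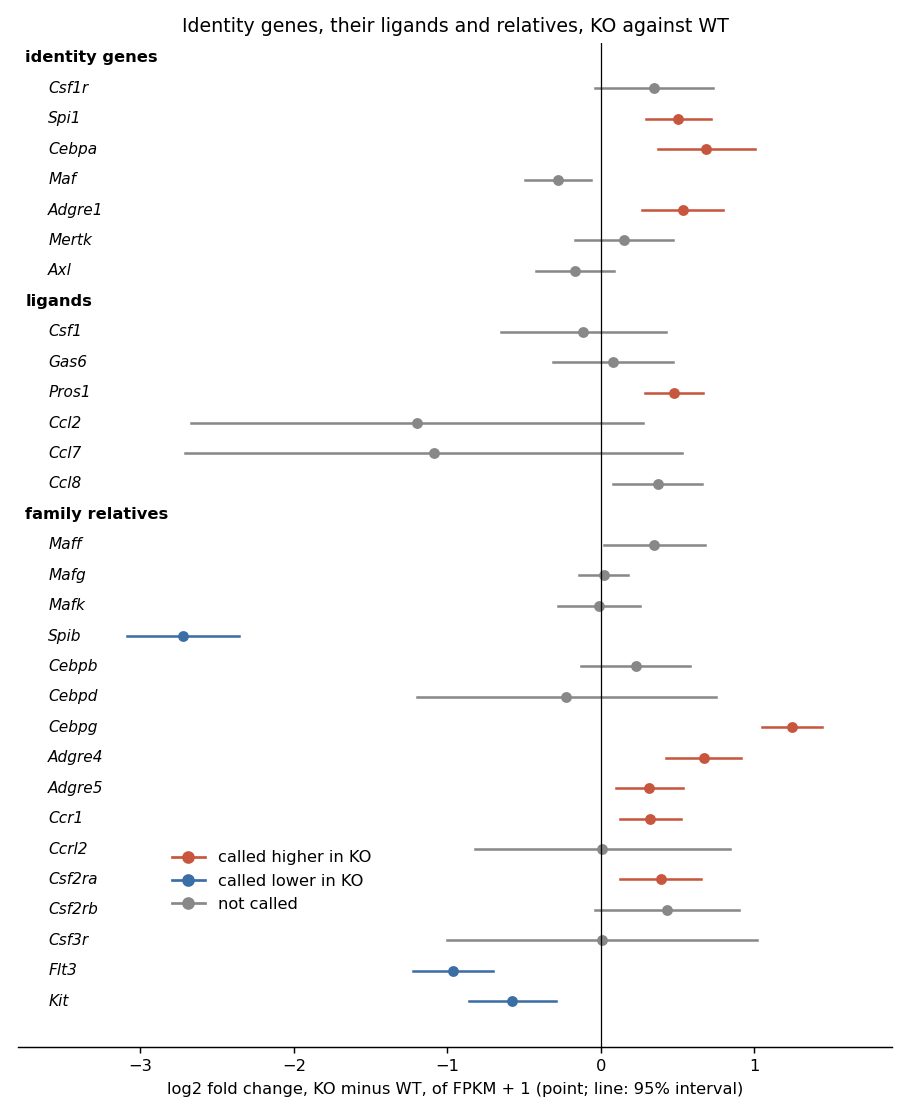
Log2 difference between genotypes (KO minus WT, from log2(FPKM + 1)), with 95% intervals, for the 7 tested identity genes, and ligands and family relatives reported here. *Spi1*, *Cebpa* and *Adgre1* lie right of 0, with lower bounds of 0.29, 0.37 and 0.27, and *Spib* lies furthest left at -2.72.

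The TAM receptor genes stood at different levels, and neither passed. *Axl* (ENSMUSG00000002602, GRCm38, chromosome 7, 25757273 to 25788705, minus strand, protein coding) had 11.5, 11.998 and 12.2 FPKM in WT libraries and 12.3, 10.1 and 9.23 FPKM in KO libraries. KO replicate 1 was the highest of the 6 and the other KO libraries were the lowest. The log2 difference was -0.17 with a standard error of 0.11 and a 95% interval of -0.42 to 0.085 (limma, adjusted p = 0.281), and without KO replicate 1 it was -0.28 and called (limma, adjusted p = 0.0457). Interferon can induce *Axl*. Type I interferon-stimulated genes fell in 17 of 23 tested cases and stood at a median of 70.7, 118 and 113% of their WT means in the WT libraries and 57.8, 26.1 and 23.0% in the KO libraries. WT replicate 1 was the lowest of the WT libraries and KO replicate 1 the highest of the KO libraries. The number of lower calls was 6 without WT replicate 2 and 4 without WT replicate 3, KO replicate 2 or KO replicate 3. Their part in the *Axl* values was not tested.

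*Mertk* (ENSMUSG00000014361, GRCm38, chromosome 2, 128698956 to 128802894, plus strand, protein coding) was low, with 1.65, 1.94 and 1.49 FPKM in WT on 115, 99 and 81 reads. KO libraries had 2.52, 1.88 and 1.62 FPKM on 140, 129 and 105 reads. The groups overlapped, with KO replicate 1 above all others. The log2 difference was 0.15 with a standard error of 0.13 and a 95% interval of -0.17 to 0.47 (limma, adjusted p = 0.445). *Axl* per *Mertk* was 6.95, 6.19 and 8.18 in WT libraries and 4.87, 5.36 and 5.71 in KO libraries, each KO ratio below each WT ratio (exact permutation test, two-sided, p = 0.1; 0.114 adjusted over the 8 ratios). *Tyro3*, the remaining TAM receptor gene, had 35 reads in WT and 17 in KO and was not tested.

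Of the TAM ligand genes, *Pros1*, for protein S, rose. It had 5.23, 4.76 and 4.53 FPKM in WT and 6.67, 7.11 and 7.57 in KO, without overlap. The rise was 1.47-fold (log2 difference 0.48, standard error 0.08; limma, adjusted p = 0.00769), and it was not called in TPM (0.148). *Gas6* had 50 reads in WT and 66 in KO (limma, adjusted p = 0.755). Among 25 genes of apoptotic cell uptake 10 rose and 2 fell (median 0.25), and in TPM 5 rose and 1 fell. Shares over all tested genes were 15.7% higher and 12.4% lower, and 3.35% and 8.68% in TPM. The engulfment receptor genes *Scarf1* and *Lrp1* were 2.04-fold and 1.58-fold higher, while *Timd4*, a phosphatidylserine receptor gene of resident macrophages, was 8.26-fold lower.

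The monocyte chemokine receptor genes were near the floor. *Ccr2* (ENSMUSG00000049103, GRCm38, chromosome 9, 124101950 to 124113557, plus strand, protein coding) had 0.581, 0.591 and 0.355 FPKM in WT on 63, 47 and 30 reads. KO libraries had 0.266, 0.431 and 0.365 FPKM on 23, 46 and 37 reads, and the groups overlapped. An exact two-sided permutation test of the means gave p = 0.3. With no filter on low values the log2 difference was -0.15 (limma, adjusted p = 0.535). *Cx3cr1* (ENSMUSG00000052336, GRCm38, chromosome 9, 119901616 to 120069879, minus strand, protein coding) had 1, 0 and 7 reads in WT libraries and 5, 3 and 4 reads in KO libraries, at most 0.124 FPKM. Its exact two-sided permutation p was 0.7, and no difference was detectable at this depth. *Gm33858*, which shares its exon bases on the other strand, had 1 read in WT and 1 in KO.

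Of the other chemokine receptor genes, *Ccr1* and *Ccrl2* were abundant. *Ccr1* had 254, 232 and 245 FPKM in WT and 283, 316 and 318 in KO (limma, adjusted p = 0.0321), a call lost under 9 of 17 alternatives. The atypical receptor gene *Ccrl2* had 193, 263 and 347 FPKM in WT and 427, 207 and 204 in KO, high in KO replicate 1 (limma, adjusted p = 0.986). *Ccr3*, of eosinophils, had 42 and 28 reads and was not tested. Over all 18 tested relatives of the 9 genes 7 rose and 3 fell (median 0.24), and in TPM 2 rose and 3 fell. Among all tested genes 15.7% rose and 12.4% fell, and in TPM 3.35% and 8.68%.

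Ligand genes of CCR2 varied widely within each genotype. *Ccl2* had 149, 338 and 317 FPKM in WT and 276, 65.2 and 71.9 in KO (log2 difference -1.20, standard error 0.61; limma, adjusted p = 0.194). *Ccl7* had 109, 282 and 246 FPKM in WT and 253, 57.5 and 52.8 in KO (limma, adjusted p = 0.276). For both, WT replicate 1 was the lowest WT library and KO replicate 1 the highest KO library. Without KO replicate 1 the log2 differences were -1.86 and -1.82, and both were called (limma, adjusted p = 0.0221 and 0.0311). *Ccl8* had 7.44, 6.32 and 8.76 FPKM in WT and 10.9, 9.30 and 9.66 in KO and did not pass (limma, adjusted p = 0.0643). *Ccl12* had 18 reads in WT and 0 in KO, at least 6.48-fold lower when 3 reads over the group are taken as the KO floor. *Cx3cl1*, for the ligand of CX3CR1, had 47 reads in WT and 14 in KO and was too low to be tested.

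The wider macrophage programme moved unevenly. Among 25 other pan-macrophage markers 9 rose and 4 fell (median 0.32). The inhibitory receptor gene *Sirpa* was 1.74-fold higher, the protease gene *Lgmn* 1.61-fold and the haemoglobin scavenger receptor gene *Cd163* 3.63-fold, while the scavenger receptor gene *Marco* was 3.79-fold lower. Of 26 other myeloid transcription factor genes 8 rose and 4 fell (median 0.052). *Egr2*, of the early growth response family, was 2.63-fold higher, and *Irf5*, which promotes inflammatory macrophage genes, was 1.69-fold lower. In TPM 8 pan-macrophage markers and 2 of the transcription factor genes rose, and 3 and 4 fell. Shares over all tested genes were 15.7% higher and 12.4% lower, and 3.35% and 8.68% in TPM.

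Monocyte markers were mostly lower where they passed. Over all tested genes 12.4% were called lower and 15.7% higher. Of 9 classical monocyte markers 3 fell and 1 rose (median -0.050). *Plac8* fell from 14.9 to 1.39 FPKM, and *Ms4a4c* from 4.32 to 0.530, whereas *S100a4* rose from 7.69 to 13.5 FPKM (limma, adjusted p = 0.0255). Of 6 non-classical markers 3 fell, namely *Spn*, *Itgal* and *Eno3* (median -0.45). The calls of *S100a4*, *Itgal* and *Eno3* were lost under 8 of 17, 8 of 17 and 8 of 16 alternatives, and the adjusted p of *Itgal* was 0.0488 in limma. Lymphocytes also express *Spn* and *Itgal*, and 6 of 7 T and NK cell markers fell beside the B cell markers (sum of 14 listed 18.9 to 21.8 FPKM in WT, 5.11 to 6.53 in KO). Their part in the monocyte lists was not tested.

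Markers of peritoneal macrophages went both ways. For the counts that follow, shares over all tested genes were 15.7% higher and 12.4% lower, and 3.35% and 8.68% in TPM. Of 10 large peritoneal macrophage markers 2 rose and 4 fell (median -0.0013), with the coagulation factor gene *F5* 1.80-fold higher and the lipoxygenase gene *Alox15* 1.81-fold lower. Of 11 small peritoneal macrophage markers 3 rose and 4 fell (median 0.13). The lectin gene *Mgl2* was 2.88-fold higher and *Ciita*, for the regulator of MHC class II genes, 7.34-fold lower. The 4 that fell were *Irf4*, *H2-Aa*, *H2-Eb1* and *Ciita*, which B cells and dendritic cells also express. The part of these cells in the falls was not tested. The 3 tested microglial markers of 9 listed all rose, among them *Tmem119* (4.73-fold) and *Fcrls* (2.11-fold). The call of *Fcrls* was lost under 7 of 16 alternatives, and in TPM 2 microglial markers rose and 1 fell. Neutrophil markers fell in 3 of 12 cases, and mesothelial and fibroblast markers in 4 of 7. The tested eosinophil marker *Il5ra* fell, 1 endothelial marker rose and 1 fell, and the tested retinal marker did not pass.

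**Figure D3:**
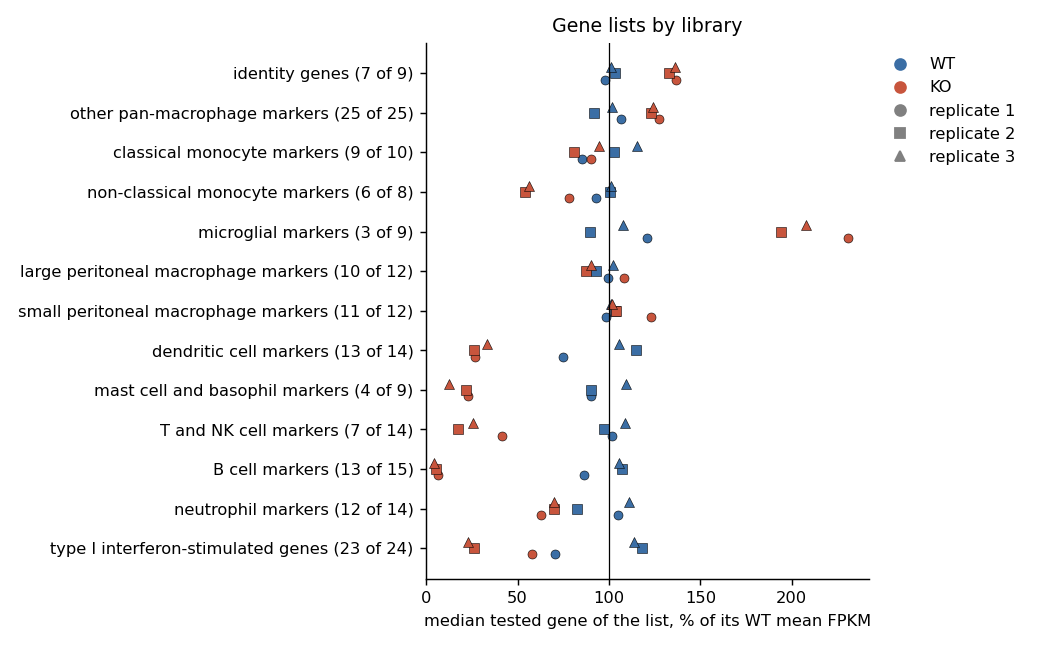
Median tested gene of each list as a percentage of its own WT mean FPKM, by library; the number tested of those listed is in brackets. The identity genes lie at 97.6% to 103% in WT and 133% to 137% in KO, B cell markers at 4.43% to 6.56% in KO, and interferon-stimulated genes at 57.8, 26.1 and 23.0% in the KO libraries.

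Genes whose levels ran most like those of an identity gene over the 6 libraries were found by Pearson's r on log2(FPKM + 1). They were sought among tested genes whose mean reached 2 FPKM. Predicted genes, with symbols of Gm plus a number or ending in Rik, were left out. This is a description over libraries that share genotype and scaling. For *Spi1* they were *Itgb2*, *Ptafr* and *Mamld1* (r = 0.999, 0.999 and 0.998), and for *Cebpa* *Mib2*, *Ccnc* and *Tmub2* (0.997, 0.995 and 0.994). *Maf* ran with *Ubtf*, *Stoml1* and *Tomm70a* (0.994, 0.992 and 0.991), and *Csf1r* with *Laptm5*, *Cul2* and *Rnf128* (0.997, 0.997 and 0.997). *Adgre1* ran with *Pon3* and *Skap2* (0.999 each). *Axl* was closest to *Ccdc86*, *Zfp513* and *Hpf1* (0.993, 0.992 and 0.990), and *Mertk* to *Scpep1os*, *Asxl2* and *Rpe* (0.984, 0.975 and 0.972).

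The number of identity genes called moved with the scaling. In TPM, where *Ccr2* was tested too, 1 of 8 rose, *Adgre1*, where 3.35% of all tested genes rose and 8.68% fell. In TPM over the same genes 1 rose (4.64% of all), and with the replicate number as a block 1 rose, *Cebpa* (4.10% of all). One gene was called lower without the trend (12.5% of all), 1 in voom (13.4%) and 1, *Axl*, without both replicate 1 libraries (16.3%).

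**Figure D4:**
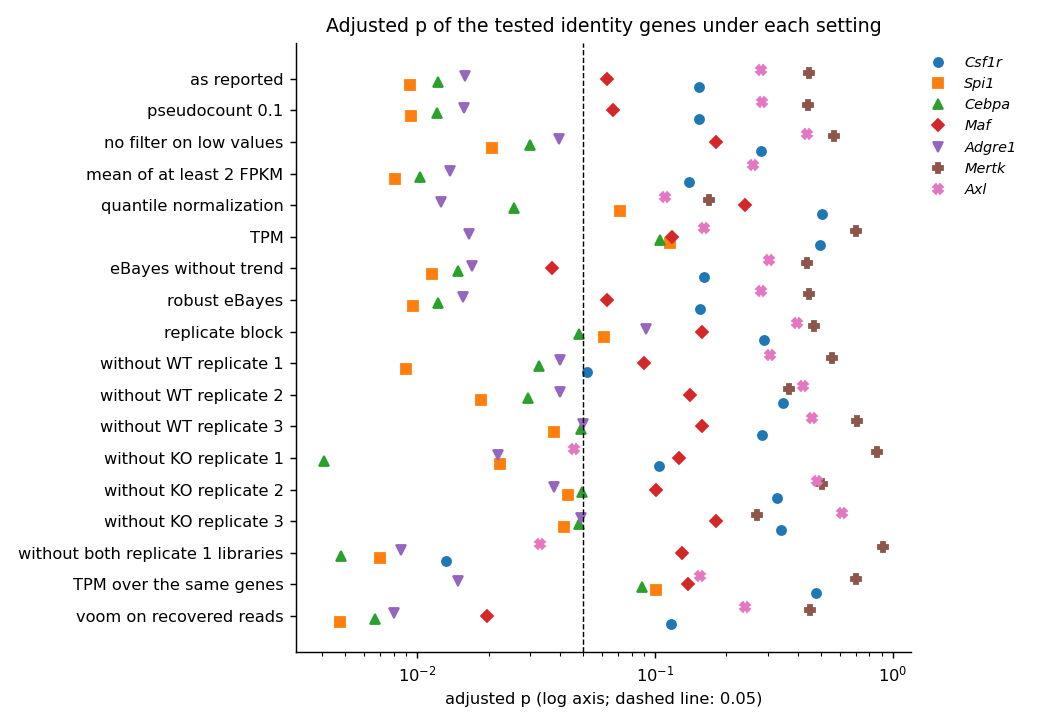
Adjusted p of the 7 tested identity genes (log axis, dashed line at 0.05) as reported and under 17 other settings. *Spi1* lies past the line in 13 of the 17, *Cebpa* and *Adgre1* in 15 each, *Csf1r* in 1 and *Axl* in 2, and *Maf* in 2 of 16.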

How the data were processed

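The authors deposited 1 table of FPKM per gene for 6 libraries, with coordinates and gene lengths. Per the submitters' processing notes the build was GRCm38 (mm10). No aligner, counter, annotation release or strand setting is given in the sources used here. FPKM times gene length, divided by the step that 1 read makes in a library, was whole within 0.05 for 100% of non-zero values, and these quotients were taken as reads. Libraries of a genotype differed by more than sampling noise, so all 6 were kept. Chi-square over degrees of freedom was taken over genes that reached 20 reads in the pair. It was 7.10 to 42.2 in WT, 59.4 for each pair with KO replicate 1, and 2.30 for KO replicates 2 and 3. Genotypes and replicate numbers came from sample titles.

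Values were fitted as log2(FPKM + 1) with limma 3.58.1 in R 4.3.3 on genotype alone, eBayes with an intensity trend, for the 11689 genes whose mean reached 0.5 FPKM. Benjamini-Hochberg adjusted p below 0.05 was called. Folds are ratios of mean FPKM. Scripts were tested on simulated data. Exon overlaps came from GENCODE M21. Members and the 22 gene lists were chosen with earlier results of these data known. The naming rule took the members, *Metrnl*, their ligands and relatives, up to 4 called genes with the smallest p from each other list and the 3 most correlated genes per member; not all are reported here. Alternatives were 14 listed at the start and 3 chosen after seeing the data: voom on the reads, TPM over the same genes, and leaving out both replicate 1 libraries. Voom took the library totals that the FPKM values imply, so it kept the deposited scaling.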

Additional observations from a re-analysis of the deposited data

How the results depend on the processing

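Of the 7 tested identity genes, 3 were called higher. The count was 1 in TPM, 1 in TPM over the same genes, 1 with a replicate block and 2 to 3 with 1 library left out. Lower calls, 0 as reported, were 1 without the trend, 1 in voom, 1 without both replicate 1 libraries and 0 to 1 with 1 library left out. Over all genes the 1833 higher calls became 511 in TPM, 542 in TPM over the same genes, 479 with the block and 908 to 1674 with 1 library left out. The 1445 lower calls became 876 at a mean of at least 2 FPKM, with fewer genes tested, 604 with the block and 849 to 1353 with 1 library left out. The replicate numbers share no stated source: deviations of same-numbered libraries correlated at -0.50, -0.19 and -0.16, and 0 of 6 libraries correlated best with their own number. With the block 0 of the 17 lower interferon-stimulated genes, 0 of the 8 higher myeloid transcription factor genes and 0 of the 3 lower CSF1 receptor signalling genes were called, and the adjusted p was 0.0635 for *Pros1*, 0.0523 for *Adgre4* and 0.0813 for *Kit* in limma. The 7 identity genes kept their direction under every alternative run. Some ligand and relative genes that did not pass reversed. In TPM, TPM over the same genes and quantile normalization the log2 differences were -0.064, -0.064 and -0.15 for *Mafg*, -0.074, -0.074 and -0.18 for *Ccrl2* and -0.076, -0.076 and -0.15 for *Csf3r*. Without both replicate 1 libraries they were 0.22 for *Csf1*, -0.043 for *Mafg*, -0.56 for *Ccrl2* and -0.71 for *Csf3r*, of which *Ccrl2* and *Csf3r* were then called lower (limma, adjusted p = 0.0391 and 0.00209). *Csf2rb* was then called higher (0.75; adjusted p = 0.00218) and *Cebpd* lower (-0.93; adjusted p = 0.00280). With 1 library left out they ranged from -0.27 to 0.10 for *Csf1*, -0.020 to 0.048 for *Mafg*, -0.12 to 0.057 for *Mafk*, -0.60 to 0.0013 for *Cebpd*, -0.34 to 0.22 for *Ccrl2* and -0.44 to 0.25 for *Csf3r*. The other causes were not tested. Over all named genes 1389 alternative values kept direction and call, 124 lost the call, 13 gained it and 25 reversed. Low read counts limit *Cx3cr1*, *Ccr2* and *Maf*.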
